A study of Mus musculus with 12 samples.

Results

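The genes described here encode 10 enzymes that build and modify fatty acids in the liver: Acly, Acaca, Acacb, Fasn, Me1, Elovl6, Scd1, Elovl5, Fads1 and Fads2. Every probe set of the array that is annotated to exactly 1 of these symbols was taken, which gave 21 probe sets of 45141. A probe set is a group of short DNA probes that measure the mRNA of one gene together. Of the 21, 19 were bright enough to be tested, a criterion that kept 17339 of the 28898 probe sets with a single gene on the whole array. The other two, a second probe set each of Acaca and Acacb, are described by their values alone.

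Liver tissue came from male mice, as total RNA hybridised to Affymetrix arrays, 1 array for each of 12 liver extracts. Pml knockout and wild-type mice were fed a high-fat diet (60% of calories from fat) or a low-fat control diet (10% of calories from fat) for 20 weeks, then fasted for 8 h. The 4 groups were knockout mice on the high-fat diet, wild-type mice on the high-fat diet, knockout mice on the low-fat diet and wild-type mice on the low-fat diet, with 3 extracts each out of 8 mice. Pml encodes the protein that organises PML nuclear bodies. The labels give neither the design of the knockout allele nor the strain or age of the mice, and they do not say outright that each extract is from its own mouse, so p-values measure the spread between these extracts. Signals are on the log2 scale, where a difference of 1 is a 2-fold change, and the number of arrays limits the precision.

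De novo synthesis turns surplus carbohydrate into fat. Acly, ATP citrate lyase, splits citrate in the cytosol into acetyl-CoA, the carbon source. The acetyl-CoA carboxylases Acaca and Acacb make malonyl-CoA from it, Acaca for the synthesis of fatty acids and Acacb at the mitochondrial surface, where malonyl-CoA restrains the import of fatty acids for burning. Fatty acid synthase, Fasn, joins these units into palmitate with NADPH, part of which malic enzyme Me1 supplies. Elovl6 lengthens palmitate to stearate and Scd1 puts in the first double bond, which gives palmitoleate and oleate. Elovl5, Fads1 and Fads2 act mainly on a different substrate, the essential polyunsaturated fatty acids of the diet. Many of these genes are known targets of SREBP transcription factors, of the carbohydrate-responsive factor encoded by Mlxipl and of the liver X receptors. In the fasting liver their transcription is usually low, and feeding raises it.

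The genes lie on 5 mouse chromosomes: Elovl6 on chromosome 3, Acacb on 5, Me1 and Elovl5 on 9, Acly, Acaca and Fasn on 11, and Scd1, Fads1 and Fads2 on 19. Fads1 and Fads2 are next to each other in the RefSeq annotation of GRCm38.p6, with Fads3 on the far side of Fads2. RefSeq's promoter table held windows for 8 of the 10 genes, Scd1 and Fads1 not among them. The 250 bases before the start of 4 genes are shown because these genes span the range of the diet response given further on, with Fasn and Elovl6 among the large falls, Elovl5 among the small ones and Fads2 below the threshold. Each sequence runs 5′ to 3′ on the strand of its gene. Capitals mark matches, on either strand, to CCAAT (the NF-Y box), GGGCGG (the GC box bound by Sp1), CACGTG (an E-box) or TCACNCCAC (a sterol response element), and matches that overlap run together.
Fasn, GRCm38.p6 chr11:120824548-120824797, minus strand: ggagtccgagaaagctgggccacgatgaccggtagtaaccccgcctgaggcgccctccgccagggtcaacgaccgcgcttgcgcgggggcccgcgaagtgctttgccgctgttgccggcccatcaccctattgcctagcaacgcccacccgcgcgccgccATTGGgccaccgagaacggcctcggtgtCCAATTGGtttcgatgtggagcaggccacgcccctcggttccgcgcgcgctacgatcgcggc
Elovl6, GRCm38.p6 chr3:129532136-129532385, plus strand: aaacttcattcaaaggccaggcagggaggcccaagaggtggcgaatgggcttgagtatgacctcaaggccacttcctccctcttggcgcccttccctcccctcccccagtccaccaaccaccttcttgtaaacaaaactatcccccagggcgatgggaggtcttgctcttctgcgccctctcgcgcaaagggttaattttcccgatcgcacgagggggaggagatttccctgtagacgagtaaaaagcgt
Elovl5, GRCm38.p6 chr9:77917115-77917364, plus strand: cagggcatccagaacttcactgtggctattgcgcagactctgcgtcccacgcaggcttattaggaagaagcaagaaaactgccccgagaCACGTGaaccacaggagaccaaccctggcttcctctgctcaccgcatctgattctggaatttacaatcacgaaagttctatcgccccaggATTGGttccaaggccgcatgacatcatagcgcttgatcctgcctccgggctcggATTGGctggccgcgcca
Fads2, GRCm38.p6 chr19:10101504-10101753, minus strand: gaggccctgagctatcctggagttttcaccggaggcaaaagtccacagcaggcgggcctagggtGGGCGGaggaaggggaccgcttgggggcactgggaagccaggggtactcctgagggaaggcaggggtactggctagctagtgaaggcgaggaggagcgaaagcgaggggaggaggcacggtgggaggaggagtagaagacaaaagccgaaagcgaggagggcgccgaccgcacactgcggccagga
Fasn had 3 CCAAT matches, which begin 90, 62 and 59 bases before the start, and Elovl5 had 2 CCAAT matches and 1 E-box. Elovl6 had none of the 4 motifs in this window and Fads2 had 1 GC box. Among the 8 genes, CCAAT was found in 4 (Acacb, Fasn, Me1 and Elovl5), the GC box in 3 (Acly, Me1 and Fads2), the E-box in 1 (Elovl5) and the sterol response element in 0. These counts are of genes, and the 8 genes had 9 windows. Me1 had 2, with its GC boxes in window 1 and its CCAAT in window 2. Of 32851 mouse promoter windows of the same length, 33.9% held CCAAT, 32.7% the GC box, 6.02% the E-box and 1.05% the sterol response element. A match describes the letters and does not show that a factor binds there.

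The arrays were alike, with Pearson's r between 0.986 and 0.995 over all probe sets. Pml had log2 signals of 3.04 to 3.82 in the 6 knockout livers and 4.92 to 5.40 in the 6 wild-type livers, without overlap, as the genotype labels have it, although where its probes lie relative to the deleted sequence is not stated. All 7 hepatocyte markers, among them Alb and Ttr, were bright, with a mean log2 signal from 12.6 to 12.9 in single livers. Fat cells also make many of the enzymes described here. The adipocyte markers Adipoq and Lep were below the test's minimum level and lay between 2.58 and 3.34 in every liver. Retn, Fabp4 and Lipe were above it, at 3.92 to 4.48, 4.64 to 5.95 and 4.95 to 5.91. Lipe was 5.77 to 5.91 in knockout high-fat and 5.37 to 5.59 in knockout low-fat livers. In wild-type livers it was 5.35 to 5.80 on the high-fat and 4.95 to 5.54 on the low-fat diet. The mean of the 5 measured adipocyte markers was 4.04 to 4.46 in knockout and 4.05 to 4.33 in wild-type livers on the high-fat diet. On the low-fat diet that mean was 4.05 to 4.29 in knockout and 3.97 to 4.25 in wild-type livers. Knockout low-fat replicate 2 stood apart. Its 8 macrophage markers averaged 4.98, against 5.39 in knockout high-fat replicate 3 and 5.82 to 6.64 in the other 10 livers. Counts for the knockout livers, and values that moved, are therefore given also without these 2 arrays.

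On the high-fat diet the mRNAs of fatty acid synthesis were lower than on the low-fat diet, in knockout and in wild-type livers alike in direction. All 19 tested probe sets had a negative difference, high-fat minus low-fat, in each genotype, where 8889 of the 17339 tested probe sets were negative in knockout and 9300 in wild-type livers. These diet comparisons share no arrays, but they share 1 estimate of the spread. In knockout livers 11 of the 19 fell (limma, adjusted p of 0.05 after Benjamini-Hochberg over all tested probe sets), where 0.721% of all tested probe sets did. In wild-type livers 8 of the 19 fell, against a background of 0.0807%. Averaged over the genotypes 14 fell, at least 1 probe set of every gene but Fads2, against 1.34%. The median of the 19 differences was -0.85 in knockout and -1.11 in wild-type livers, while the median of all tested probe sets was -0.01 in both. Livers did not overlap between the diets, with every high-fat liver below every low-fat liver, in 13 of the 19 probe sets in knockout (background 9.82%), in 17 in wild-type (background 8.35%) and in 12 with 6 livers on each diet (background 1.28%). In bulk tissue fewer cells of a type and less RNA per cell cannot be told apart.

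**Figure D1:**
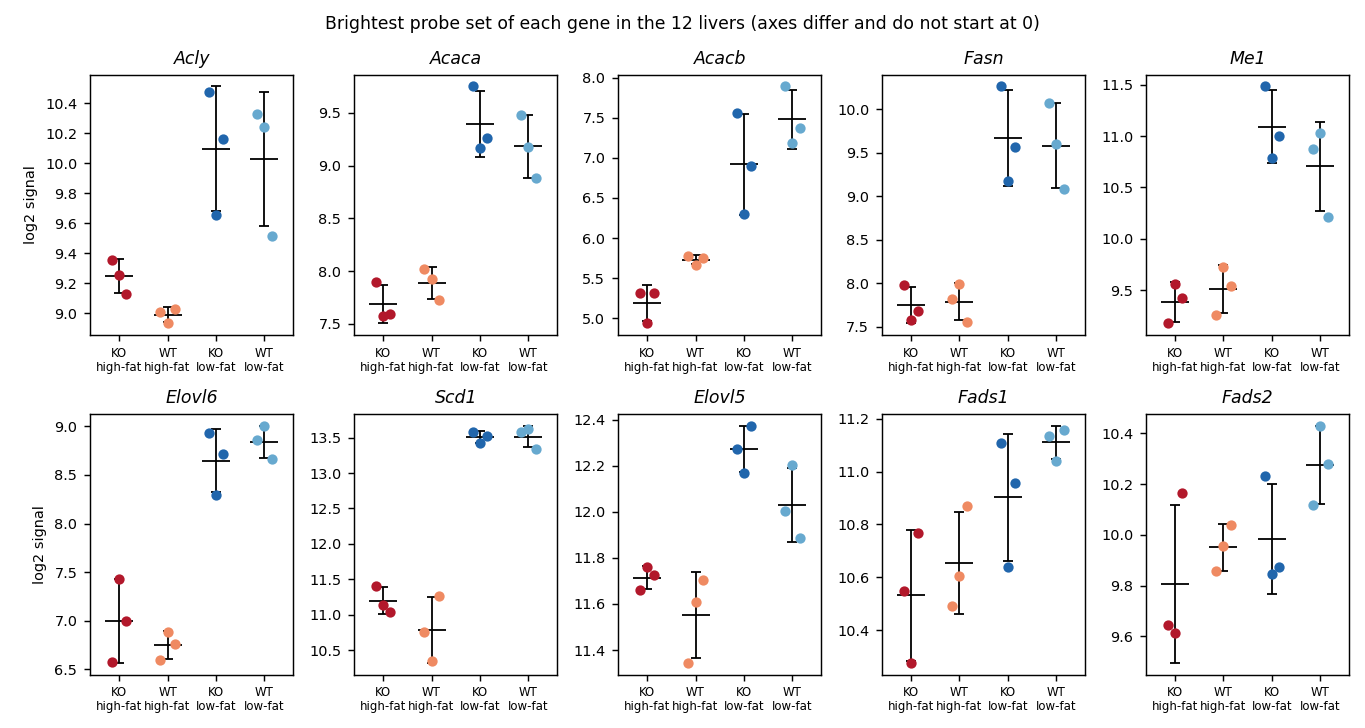
Log2 signal of the brightest probe set of each gene in the 12 livers, by genotype (KO, Pml knockout; WT, wild type) and diet; points are livers, bars the mean and SD of 3 livers, and each panel has its own axis. In 8 of the 10 panels every high-fat liver lies below every low-fat liver; Fads1 and Fads2 overlap.

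ATP citrate lyase fell when the genotypes were averaged. The brighter Acly probe set (1451666_PM_at) had 9.36, 9.26 and 9.13 in knockout livers on the high-fat diet, against 10.48, 9.65 and 10.16 in knockout livers on the low-fat diet. In wild-type livers Acly had 9.01, 8.93 and 9.03 on the high-fat and 10.33, 10.25 and 9.52 on the low-fat diet. High-fat livers were the lower ones in both genotypes without overlap, and the low-fat livers were spread much more widely, with an SD of 0.415 and 0.448 against 0.114 and 0.0501 (knockout and wild type, n = 3 each). The difference passed on average (-0.95, SE 0.148, adjusted p = 0.00499) and in neither genotype alone (-0.85, adjusted p = 0.0608 in knockout, and -1.04, adjusted p = 0.0934 in wild-type livers). Without knockout low-fat replicate 2 or wild-type low-fat replicate 3, each the lowest low-fat liver of its genotype, it passed in both. Leaving out other arrays raised the adjusted p to at most 0.193 in knockout livers (without low-fat replicate 1). In wild-type livers it rose to at most 0.397 (without high-fat replicate 2). Without knockout low-fat replicate 2 and high-fat replicate 3 together it passed in neither (limma, adjusted p = 0.0856 in knockout and 0.071 in wild-type livers). The dimmer Acly probe set averaged -0.92 (adjusted p = 0.0321), which did not pass in 9 of 12 fits with 1 array fewer.

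Both acetyl-CoA carboxylases fell in both genotypes. Acaca (1434185_PM_at), the isoform of synthesis, had 7.90, 7.57 and 7.59 in knockout livers on the high-fat diet, against 9.75, 9.16 and 9.26 on the low-fat diet. In wild-type livers Acaca had 8.02, 7.92 and 7.72 on the high-fat and 9.48, 9.18 and 8.88 on the low-fat diet. The gap between the highest high-fat and the lowest low-fat liver was 0.859, and the fall was 3.26-fold in knockout (log2 difference -1.70, SE 0.173, adjusted p = 0.00115) and 2.45-fold in wild-type livers (adjusted p = 0.00976). Acacb (1427052_PM_at), the isoform at the mitochondrial surface, had 5.32, 4.94 and 5.32 in knockout livers on the high-fat diet, against 7.56, 6.30 and 6.90 on the low-fat diet. In wild-type livers Acacb had 5.78, 5.67 and 5.75 on the high-fat and 7.89, 7.18 and 7.37 on the low-fat diet. Its differences were -1.73 in knockout (SE 0.261, adjusted p = 0.00583) and -1.75 in wild-type livers (adjusted p = 0.0187). The wild-type call for Acaca was lost without wild-type high-fat replicate 2 or low-fat replicate 1 (adjusted p up to 0.0565), and that for Acacb without those or high-fat replicate 1 or 3 (adjusted p up to 0.104). The second probe sets of both genes were near the floor of the array, between 3.05 and 3.65 for Acaca (1427595_PM_at) and between 3.25 and 3.97 for Acacb (1445754_PM_at). There the diet differences were -0.03 in knockout and -0.28 in wild-type livers for Acaca, and -0.29 and 0.10 for Acacb, none of them tested.

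Fatty acid synthase fell in both genotypes. Fasn (1423828_PM_at) had 7.98, 7.58 and 7.68 in knockout livers on the high-fat diet, against 10.26, 9.18 and 9.56 on the low-fat diet. In wild-type livers Fasn had 7.82, 7.99 and 7.56 on the high-fat and 10.07, 9.60 and 9.08 on the low-fat diet. No liver of one diet reached the range of the other. The fall was 3.80-fold in knockout (log2 difference -1.93, SE 0.265, adjusted p = 0.00404) and 3.47-fold in wild-type livers (-1.80, adjusted p = 0.0187). The wild-type call was lost in 5 of 12 refits, those without any one of wild-type high-fat replicates 1 to 3 or low-fat replicates 1 and 2, with an adjusted p of up to 0.0863.

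Malic enzyme, a source of NADPH for Fasn, fell in both of its probe sets. The brighter Me1 probe set (1430307_PM_a_at) had 9.18, 9.56 and 9.42 in knockout livers on the high-fat diet, against 11.48, 10.79 and 10.999 on the low-fat diet. In wild-type livers Me1 had 9.26, 9.73 and 9.54 on the high-fat and 10.87, 11.03 and 10.21 on the low-fat diet. The groups did not overlap in either genotype. The difference was -1.71 in knockout (SE 0.212, adjusted p = 0.0025) and -1.19 in wild-type livers, where it missed the threshold (adjusted p = 0.0592). The second Me1 probe set (1416632_PM_at) passed in both, at -1.43 in knockout (adjusted p = 0.00384) and -1.21 in wild-type livers (adjusted p = 0.032). That wild-type call was lost without any one of 5 arrays (knockout high-fat replicate 3, wild-type high-fat replicate 1 or 3, wild-type low-fat replicate 1 or 2, adjusted p up to 0.181). It was also lost in 5 of 12 other settings of the analysis. The brighter probe set passed in wild-type livers without knockout low-fat replicate 1 or 2 or wild-type low-fat replicate 3, and in 4 of 13 other settings.

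The elongase of palmitate, Elovl6, fell in both genotypes. Its brightest probe set (1417404_PM_at) had 6.57, 7.43 and 6.99 in knockout livers on the high-fat diet, against 8.93, 8.29 and 8.72 on the low-fat diet. In wild-type livers Elovl6 had 6.60, 6.89 and 6.76 on the high-fat and 8.86, 8.999 and 8.67 on the low-fat diet. High-fat livers lay at least 0.865 below low-fat livers. The fall was 3.14-fold in knockout (log2 difference -1.65, SE 0.201, adjusted p = 0.0025) and 4.27-fold in wild-type livers (-2.09, adjusted p = 0.000552), and both calls held without each array in turn. The second probe set (1417403_PM_at) had -1.75 in knockout and -1.96 in wild-type livers (adjusted p = 0.00259 and 0.00216). A further, dim one (1442656_PM_at), between 3.64 and 4.60 in single livers, averaged -0.45 over the genotypes and did not pass (adjusted p = 0.0623).

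Scd1, the stearoyl-CoA desaturase, had the largest falls among the 10 genes. The bright probe set (1415964_PM_at) had 11.41, 11.14 and 11.04 in knockout livers on the high-fat diet, against 13.58, 13.43 and 13.52 on the low-fat diet. In wild-type livers Scd1 had 10.75, 10.34 and 11.27 on the high-fat and 13.58, 13.63 and 13.34 on the low-fat diet. The fall was 4.97-fold in knockout (log2 difference -2.31, SE 0.175, adjusted p = 0.000134) and 6.64-fold in wild-type livers (-2.73, adjusted p = 1.8e-05), the smallest p of all 17339 tested probe sets in both. Its low-fat values, up to 13.6, were near the highest value of the whole table, 14.2. The dimmer Scd1 probe set (1415965_PM_at) had 5.98, 5.92 and 5.91 in knockout livers on the high-fat diet, against 10.59, 9.71 and 10.04 on the low-fat diet. In wild-type livers it had 5.66, 4.40 and 5.87 on the high-fat and 10.21, 11.01 and 9.14 on the low-fat diet. Its differences of -4.18 (SE 0.428, adjusted p = 0.00115) and -4.81 (adjusted p = 0.000302), 18.1-fold in knockout and 28.0-fold in wild-type livers, were the largest falls of any tested probe set in each genotype.

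**Figure D2:**
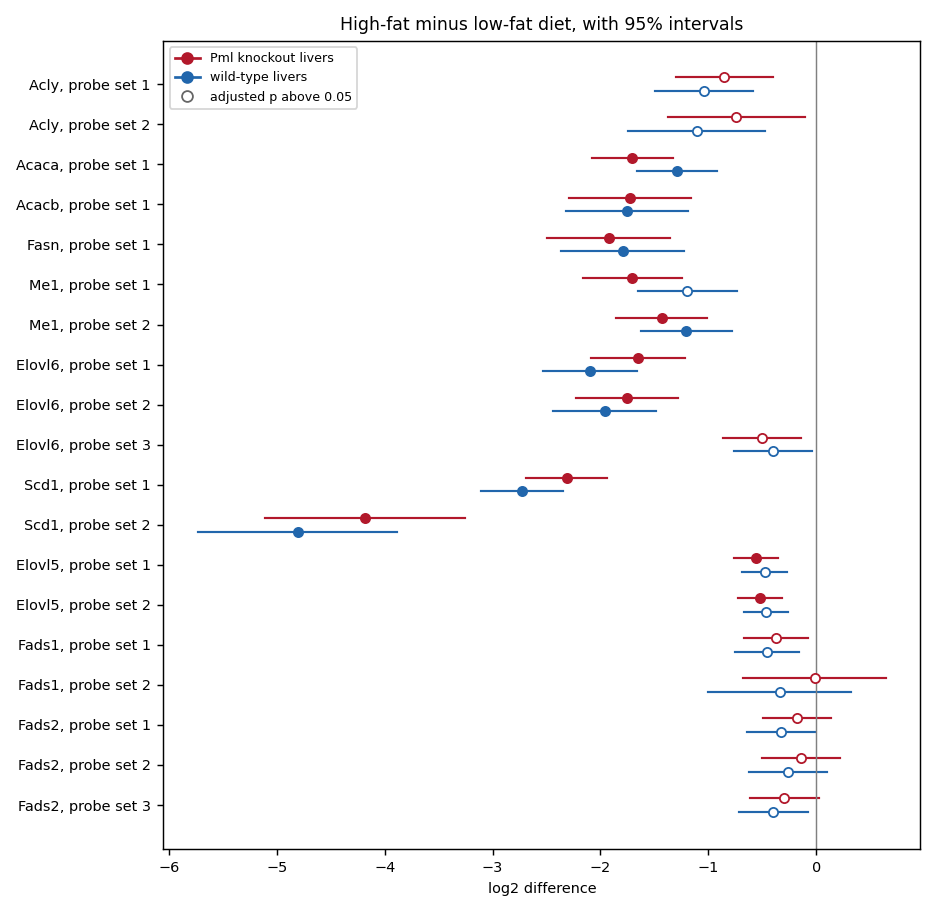
Log2 difference, high-fat minus low-fat diet, of the 19 tested probe sets in Pml knockout livers (red) and wild-type livers (blue), with 95% intervals from limma; filled points passed at an adjusted p of 0.05, and probe sets of a gene are numbered from the brightest. The intervals of the 2 genotypes overlap for every probe set, and the Scd1 probe sets lie farthest from 0.

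Of the enzymes of polyunsaturated fatty acids, Elovl5 and Fads1 fell when the genotypes were averaged and Fads2 did not pass. Elovl5 (1415840_PM_at) had 11.66, 11.76 and 11.73 in knockout livers on the high-fat diet, against 12.28, 12.17 and 12.37 on the low-fat diet. In wild-type livers Elovl5 had 11.34, 11.61 and 11.71 on the high-fat and 12.003, 12.20 and 11.89 on the low-fat diet. The diets did not overlap, and the fall was 1.47-fold in knockout livers (log2 difference -0.56, SE 0.0960, adjusted p = 0.014). In wild-type livers it was -0.48 (adjusted p = 0.0934) and did not pass. The second Elovl5 probe set (1437211_PM_x_at) had nearly the same differences, -0.52 in knockout and -0.47 in wild-type livers, and the suffix x marks probes that can match other transcripts. Without knockout low-fat replicate 1 neither knockout call passed. The first was also lost without knockout high-fat replicate 2 (adjusted p = 0.0523) and the second without knockout high-fat replicate 3, and both were lost without knockout low-fat replicate 2 and high-fat replicate 3 together (adjusted p = 0.0654 and 0.0891).

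Fads1 and Fads2 are the front-end desaturases that, with Elovl5 and other enzymes, take part in making arachidonate and docosahexaenoate from dietary precursors. Fads1 (1423680_PM_at) had 10.55, 10.28 and 10.77 in knockout livers on the high-fat diet, against 11.11, 10.64 and 10.96 on the low-fat diet. In wild-type livers Fads1 had 10.49, 10.60 and 10.87 on the high-fat and 11.13, 11.04 and 11.16 on the low-fat diet. The wild-type diets did not overlap and the knockout diets did. The difference passed only on average (-0.41, SE 0.0971, adjusted p = 0.0387), a call that 8 of 12 fits with 1 array fewer did not make (adjusted p up to 0.0964). The dim Fads1 probe set (1440444_PM_at), at 4.59 to 5.99, had -0.18 (adjusted p = 0.741). Fads2 (1419031_PM_at) had 9.64, 9.61 and 10.17 in knockout livers on the high-fat diet, against 10.23, 9.85 and 9.87 on the low-fat diet. In wild-type livers Fads2 had 9.86, 9.95 and 10.04 on the high-fat and 10.12, 10.43 and 10.28 on the low-fat diet. Its 3 probe sets averaged -0.25, -0.20 and -0.35, none past the threshold (adjusted p = 0.227, 0.413 and 0.0991). The 95% interval of the first, from -0.47 to -0.03, lies below 0 and does not reach the falls of Fasn, Elovl6 or Scd1, whose intervals end at -1.46, -1.56 and -2.25.

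Against the whole array these differences are large. Only 30 of 17339 tested probe sets had a mean diet difference of -1 or less, and 9 of the 30 belong to these genes: the 2 each of Scd1, Elovl6 and Me1 and 1 each of Fasn, Acaca and Acacb. The 2 Scd1 probe sets rank 1 and 2 among all falls, and the brightest Elovl6, the Fasn and the second Elovl6 probe set rank 5, 6 and 7. The 10 genes were chosen with these results known, so their share of the large falls is a description. Across the brightest probe set of each gene, the median difference was -1.68 in knockout and -1.24 in wild-type livers.

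**Figure D3:**
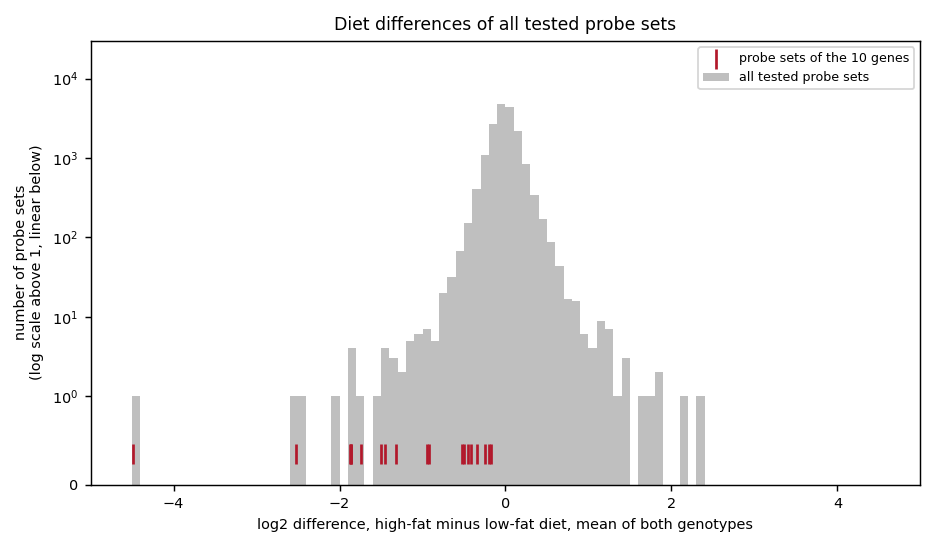
Number of tested probe sets by log2 difference, high-fat minus low-fat diet, averaged over both genotypes (grey, in bins of 0.1; the vertical axis is logarithmic above 1), with the 19 probe sets of the 10 genes as red ticks. All ticks lie below 0, from -4.49 to -0.18, while the grey bars centre on -0.01.

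In the low-fat groups single livers were often the lowest or the highest of their group. Knockout low-fat replicate 2 had the lowest signal of its group for all 10 genes (brightest probe sets), with a mean of 0.302 below the group, and knockout low-fat replicate 1 the highest for 9 of 10, with a mean of 0.318 above it, where 29.9% of all tested probe sets were highest in that liver. Of all tested probe sets 47.2% were lowest in knockout low-fat replicate 2. Wild-type low-fat replicate 3 was lowest for 7 of 10 genes, against 44.8% of all tested probe sets, and lay 0.236 below its group. In the high-fat groups no liver was lowest for more than 5 of the 10. Knockout low-fat replicate 2 has the lowest mean of macrophage markers, as given above, and its 8 endothelial markers averaged 5.95, against 6.44 and 6.87 in the other two of its group. This endothelial mean was not particular to that liver, since knockout high-fat replicates 2 and 3 had 5.94 and 5.93. The part of these cell types in the signals of the 10 genes was not tested. Without that array 13 probe sets fell in knockout livers in place of 11, and without it and knockout high-fat replicate 3 together 9 did, with Fasn at -2.14, Acacb at -2.10 and Scd1 at -2.28 (adjusted p = 0.0213, 0.0124 and 0.00962). For 4 of the 5 Fads1 and Fads2 probe sets the knockout difference moved by more than the spread between replicates and did not pass. The diet difference in knockout livers was then -0.62 for the bright and -0.51 for the dim Fads1 probe set, against -0.37 and -0.02 with all arrays. For the 2 bright Fads2 probe sets it was -0.42 and -0.41, against -0.18 and -0.14 with all arrays. The interaction of these 4 was then -0.16 and -0.17 for Fads1 and -0.10 and -0.14 for Fads2, of opposite sign to the values with all arrays (0.09 and 0.32 for Fads1, 0.15 and 0.12 for Fads2).

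**Figure D4:**
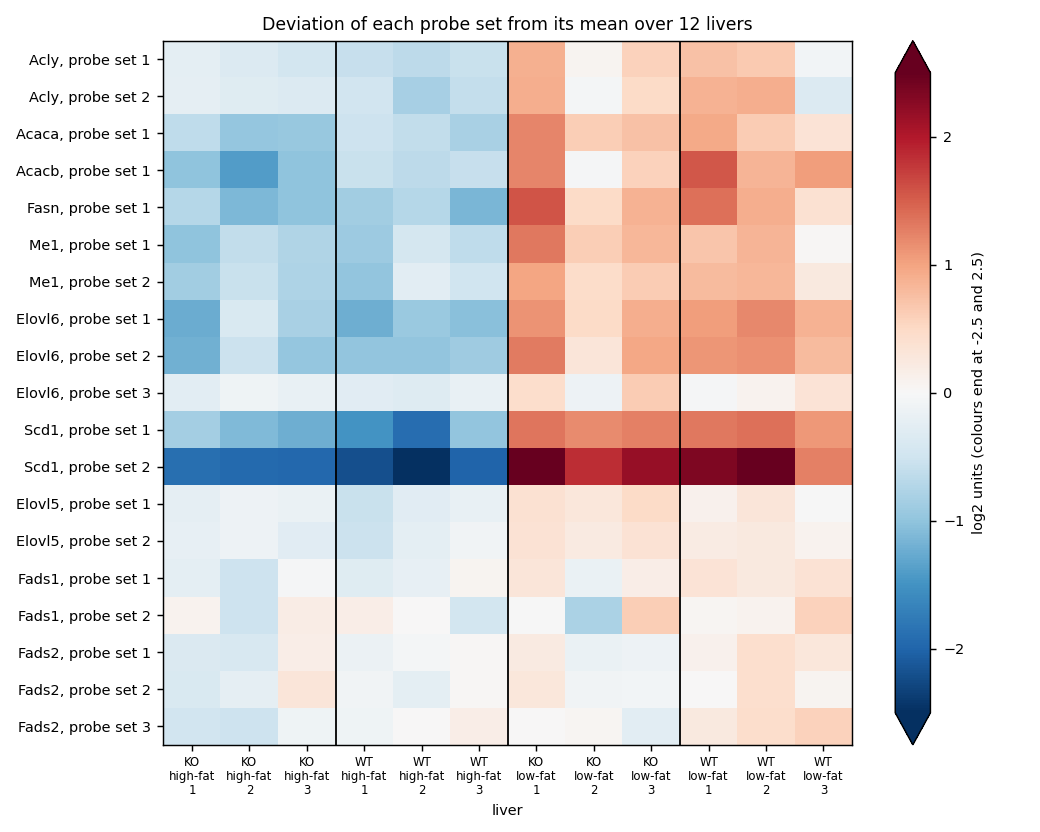
Log2 signal of the 19 tested probe sets in each of the 12 livers as the deviation from the probe set's own mean (red above, blue below; colours end at -2.5 and 2.5). The 6 high-fat livers on the left are blue for nearly all synthesis genes, and knockout low-fat replicate 2 and wild-type low-fat replicate 3 are paler than the other low-fat livers.

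Between knockout and wild type, 0 of the 19 probe sets passed on either diet or on average (limma). On the high-fat diet 0.00577% of all tested probe sets passed (1 of 17339), on the low-fat diet 0.00577% and on average 0.00577%, 1 probe set each time. An unadjusted p under 0.05 was found for 2 of the 19 on the high-fat diet (background 4.35%), for 2 on the low-fat diet (background 8.13%) and for 3 on average (background 6.62%). The median of the 19 differences, knockout minus wild type, was 0.02 on the high-fat and -0.01 on the low-fat diet. Fasn had -0.04 on the high-fat diet, with a 95% interval from -0.62 to 0.53, and 0.09 on the low-fat diet, with an interval from -0.49 to 0.66. These intervals hold differences in either direction, and neither reaches the fall seen with diet.

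Acacb had the lowest genotype difference of the 19 on each diet. On the high-fat diet the knockout livers had 5.32, 4.94 and 5.32, and the wild-type livers 5.78, 5.67 and 5.75. On the low-fat diet the knockout livers had 7.56, 6.30 and 6.90, and the wild-type livers 7.89, 7.18 and 7.37. The difference was -0.54 on the high-fat diet (SE 0.261, adjusted p = 0.997) and -0.56 on the low-fat diet (adjusted p = 0.616), and -0.55 on average (unadjusted p = 0.0106, adjusted p = 0.678). Without each array in turn the low-fat value ranged from -0.88 to -0.25, the upper end without knockout low-fat replicate 2.

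Scd1, Elovl5 and Fads2 held the other low p-values, and none passed. The bright Scd1 probe set had a mean of 11.20 ± 0.192 in knockout and 10.78 ± 0.464 in wild-type livers on the high-fat diet (SD, n = 3 each), a difference of 0.41 (adjusted p = 0.997), which ranged from 0.19 to 0.65 without each array in turn. On the low-fat diet its difference was -0.01, with an interval from -0.39 to 0.37. Elovl5 had differences of 0.16 and 0.24 (high-fat and low-fat diet, adjusted p = 0.997 and 0.559), and its second probe set had 0.08 and 0.13. The dimmest Fads2 probe set (1443838_PM_x_at) had 5.26, 5.21 and 5.63 in knockout and 5.62, 5.75 and 5.91 in wild-type livers on the high-fat diet. On the low-fat diet it had 5.74, 5.78 and 5.47 in knockout and 5.97, 6.18 and 6.31 in wild-type livers. Its average difference of -0.44 had the smallest unadjusted p of the 19 (0.00101, adjusted p = 0.66), while the bright Fads2 probe sets had -0.22 and -0.06.

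**Figure D5:**
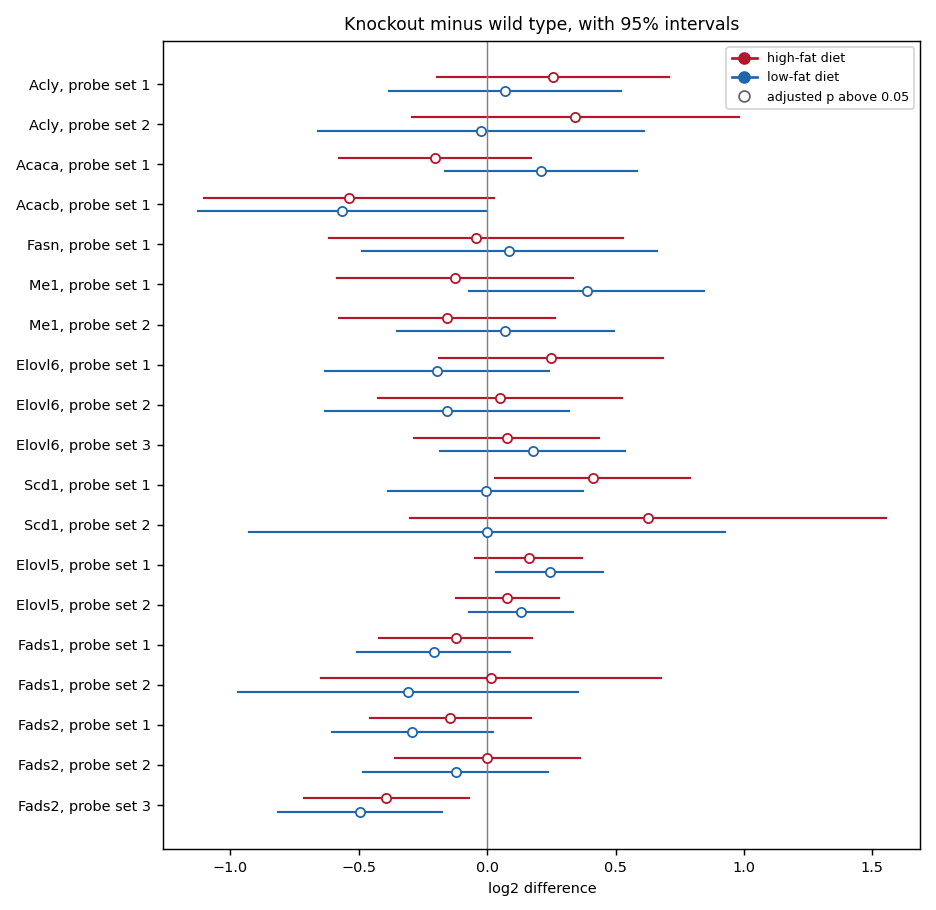
Log2 difference, Pml knockout minus wild type, of the 19 tested probe sets on the high-fat diet (red) and the low-fat diet (blue), with 95% intervals from limma; open points did not pass. All points are open and lie between -0.56 and 0.63.

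The interaction asks whether the diet response differed between the genotypes. None of the 17339 tested probe sets passed (0% called), and 0 of the 19 had an unadjusted p under 0.05, against 5.51% of all tested. The lowest adjusted p among the 19 was 0.901 (limma). The interaction is the diet difference in knockout livers minus that in wild-type livers. It was 0.42 for Scd1 (95% interval from -0.12 to 0.95) and 0.44 for Elovl6 (from -0.17 to 1.06). For Me1 it was -0.51 (from -1.16 to 0.14) and for Acaca -0.41 (from -0.94 to 0.12). Fasn had -0.13 and Acacb 0.02, which was -0.35 without knockout low-fat replicate 2 and high-fat replicate 3. The 4 intervals given include 0 and are wide, and a p that misses the threshold does not show that the genotypes responded alike.

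In the brightest probe sets of all 10 genes, the means of both low-fat groups lay above the means of both high-fat groups, and no pair of genotypes on the same diet differed past the threshold. For Fasn the means were 7.74 ± 0.207 in knockout and 7.79 ± 0.216 in wild-type livers on the high-fat diet (SD, n = 3 each). They were 9.67 ± 0.550 in knockout and 9.58 ± 0.494 in low-fat wild-type livers. For Fads2 the order was knockout high-fat (9.81 ± 0.311), wild-type high-fat (9.95 ± 0.0915), knockout low-fat (9.98 ± 0.215) and wild-type low-fat (10.28 ± 0.154) from low to high, with no pair tested here past the threshold.

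Some enzymes that feed the pathway fell too. Of 14 listed genes for the supply of carbon and NADPH, 11 were tested, and averaged over the genotypes 3 fell and 0 rose, with a median of -0.33 against -0.01 for all tested probe sets. Tkt, transketolase of the pentose phosphate pathway, fell by 0.56 (SE 0.0864, adjusted p = 0.00486), Acss2, which makes acetyl-CoA from acetate in the cytosol, fell by 0.73 (adjusted p = 0.0174), and Slc25a1, the mitochondrial citrate carrier, fell by 0.33 (adjusted p = 0.0354). Among 12 other desaturases, elongases and partners tested of 19 listed, 2 fell and 1 rose, with a median of 0.01. Elovl1, an elongase of saturated very long chains, fell by 0.40 (adjusted p = 0.0347), Tecr, the reductase of the elongation cycle, fell by 0.26 (adjusted p = 0.0306), and Oxsm, of the separate mitochondrial synthesis pathway, rose by 0.31 (adjusted p = 0.0281). Of all tested probe sets 1.34% fell and 1.6% rose when the genotypes were averaged.

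Among regulators of the pathway 1 gene fell. Of 21 listed, 19 were tested, 1 fell and 0 rose, and the median was -0.01. Srebf1 and Nr1h2, which encode an SREBP factor and a liver X receptor, had no probe set annotated to them alone. Their mRNA was therefore not tested. Insig1, which holds SREBP factors in the endoplasmic reticulum and is itself induced by them, fell by 0.45 (SE 0.0933, adjusted p = 0.0232). Of 10 genes that control acetyl-CoA carboxylase or its biotin cofactor, all tested, 1 fell, the biotin-recycling enzyme Btd, by 0.32 (adjusted p = 0.0396), and 0 rose. The background for these counts, averaged over the genotypes, is 1.34% of all tested probe sets that fell. Cholesterol synthesis, the other branch under SREBP control, was lower in 8 of 8 tested genes with a median of -0.51, but 0 passed (limma), with 6 at an unadjusted p under 0.05, where 17.4% of all tested probe sets were. Its smallest p-values were those of Lss, lanosterol synthase (-0.57, adjusted p = 0.0658), and Fdps, farnesyl diphosphate synthase (-1.05, adjusted p = 0.0661). In either genotype alone 0 genes of these 5 lists passed (limma), with 15 of 60 in knockout livers (background 15.7%) and 17 of 60 in wild-type livers (background 8.24%) at an unadjusted p under 0.05. Between genotypes 0 of the 60 tested genes passed on either diet, on average or for the interaction. On the high-fat diet 0 of the 60 had an unadjusted p under 0.05 (limma, background 4.35%) and on the low-fat diet 7 (background 8.13%). On average 4 had one (background 6.62%), and for the interaction 2 (background 5.51%).

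The genes whose pattern was most like that of the enzymes were found by the root-mean-square difference over 12 livers between a gene's deviations from its own mean and the mean deviation of the 10 enzymes. Among 11225 candidate genes the closest were Reck, a membrane-bound inhibitor of matrix metalloproteinases (0.125 log2 units), Rnd2 (0.197), Atg16l2, a relative of the autophagy factor Atg16l1 (0.214), Gstm6, a glutathione transferase (0.269), and 1810008I18Rik (0.277). The enzymes themselves lay between 0.195 for Acaca and 0.663 for Scd1. All 5 genes were lower on the high-fat diet on average, Reck by 1.28, Rnd2 by 1.18 and Atg16l2 by 1.42. They were picked for likeness to a profile that is low on that diet, so their fall is no separate result and no p is given. This measure finds any gene of like size of fall and says nothing of shared control.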

How the data were processed

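Total RNA of 12 livers was measured on Affymetrix arrays, 1 array each. The authors deposited log2 signals per probe set made with RMA, which corrects background, normalizes across arrays and summarizes probes; RMA is named in the submitters' processing notes, and its version and the probe annotation used then are not given in the sources used here. Such normalization gives all arrays a like distribution, so a shift shared by most genes would not be seen.

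From these values, 104 control probe sets and those with no gene (15588) or several genes (551) were left out, then the 40% of the rest with the lowest mean. A model with 1 mean per group was fitted to the other 17339 with limma 3.58.1 in R 4.3.3 (eBayes with a variance trend, 8 residual degrees of freedom before moderation), and 7 comparisons were taken from it, each two-sided and adjusted by Benjamini-Hochberg over all 17339. Intervals are 95%. Gene symbols come from the platform annotation; 28689 of 28898 identifiers were found in RefSeq's table. The genes named are the 10 enzymes, pathway genes from lists that passed or had the 2 smallest p-values in a list where none passed, and the 5 genes nearest in pattern. Also named are Pml, cell type markers, genes given as background, and listed regulators without a probe set of their own. Enzymes, lists, tests and the arrays in doubt were chosen with earlier results of these data known. On data simulated for the diet effect in wild-type livers, with 17339 probe sets, the test recovered 42% of 50 changes of 1.5-fold, 94% of 2-fold, 98% of 4-fold and 98% of 8-fold, with 8 false among 174 calls. The measured wild-type livers gave 24 calls, so the adjusted threshold was stricter there. The recovered shares therefore check the code and do not give the power in these data. Alternatives were other normalizations, filters, variance models, subsets of arrays, array weights, a replicate block and another threshold. Figures were drawn with matplotlib 3.10.9.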

Additional observations from a re-analysis of the deposited data

How the results depend on the processing

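Of the 19 tested probe sets, the number that fell on the high-fat diet was 11 in knockout livers, 8 in wild-type livers and 14 on average, and lay between 9 and 13, between 4 and 11 and between 12 and 15 when each array was left out in turn. In wild-type livers leaving out high-fat replicate 1 or 2 of that genotype gave 5, leaving out its low-fat replicate 1 gave 4, and the number was 13 with array weights. With 1 probe set per gene, the brightest, 7 of 10 genes fell in knockout livers, 5 in wild-type livers and 9 on average, fewer because fewer probe sets of these genes are counted. The calls for both bright Elovl6 probe sets and both Scd1 probe sets held in knockout livers, in wild-type livers and on average under every alternative that was run. Between genotypes and for the interaction 0 of the 19 passed under every alternative. No called difference changed sign. With knockout low-fat replicate 2 and high-fat replicate 3 both left out, 9 fell in knockout livers, 7 in wild-type livers and 15 on average. Counts over the whole array moved more than those of the enzymes. The main number of calls in either direction was 318 in knockout livers, against 80 in a fit of these groups alone, 485 with array weights, 699 at an adjusted p of 0.10, 69 without the 2 arrays and between 75 (without knockout high-fat replicate 2) and 541 (without knockout low-fat replicate 3) with 1 array left out. In wild-type livers it was 24, against 117 with array weights, 50 at an adjusted p of 0.10 and between 9 (high-fat replicate 2 of that genotype left out) and 38 (knockout low-fat replicate 2 left out). On average it was 510, against 948, 1031 and 268 (array weights, 0.10, without the 2 arrays), and between 254 and 586 with 1 array left out. The cause was not tested. Replicate numbers were not taken to pair the livers, since nothing in the labels ties them. Same-numbered livers of different groups had deviations that correlated between -0.116 and 0.338, over 0.1 in 6 of 18 pairs. Differently numbered livers of different groups correlated between -0.413 and 0.194. Of 12 livers, 7 correlated best with their own number. The highest correlations of any pair, 0.338 and 0.321, joined the same-numbered replicates 1 and 2 of the knockout groups. Whether livers of the same number share a batch was not tested, and the correlations do not settle it. With the replicate block 11, 7 and 14 probe sets fell in knockout livers, wild-type livers and on average, and 0 passed between genotypes. Acacb was not called in knockout livers in the fit of these groups alone, and Fasn not in wild-type livers with robust eBayes. The second Me1 probe set lost its wild-type call with robust eBayes, without a variance trend and in the fit of the 2 groups alone. The replicate block and the fit without the 2 arrays lost that call too. On average, the dimmer Acly probe set was not called with robust eBayes, nor the bright Fads1 probe set without a variance trend. With 3 arrays a group, small differences such as those of Fads1 and Fads2 lie close to what the spread allows.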
